A study of Mus musculus with 16 samples.

Results

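RNA levels in the cell bodies of Apc-depleted fibroblasts were compared with those in the cell bodies of control fibroblasts. All 13015 genes of the deposited table were compared, over 8 of its 16 libraries. The cells were NIH/3T3, an established line of mouse fibroblasts. They received either a control siRNA (siControl) or an siRNA against Apc (siAPC). Cells starved of serum were plated on a filter with 3 µm pores and extended protrusions toward lysophosphatidic acid (LPA) in the chamber below, and the material left above the filter was the cell body fraction (CB). The groups were thus siControl CB and siAPC CB, with 4 libraries each, and both had been starved, exposed to LPA and fixed with paraformaldehyde. The protrusion fractions (Ps) of the same cells made up the other 8 libraries and are used below only where a value in CB is set beside them. The comparison asks which RNAs change in level, by function, when Apc is reduced. In bulk libraries, a change in the number of cells of a given state and a change of RNA per cell cannot be told apart.

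Apc encodes a large scaffold protein. In the cytoplasm it is part of the destruction complex that marks β-catenin, the coactivator of the Wnt pathway, for degradation. When the complex fails, β-catenin enters the nucleus, joins TCF and LEF factors and raises a set of targets that includes the pathway's own feedback inhibitors. In fibroblasts the Apc protein also sits at microtubule ends and takes part in the transport of certain RNAs to protrusions.

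Values are log2 CPM, the log2 of the reads of a gene after scaling to library size, with the scaling factors that the authors applied between libraries. Values of single libraries are listed in the order of replicates 1 to 4, a change is the log2 fold change (siAPC CB minus siControl CB) with its standard error (SE), and an RNA is said to have risen or fallen when its limma p, adjusted by Benjamini-Hochberg over all 13015 genes, was below 0.05. Errors of group means are SD. Libraries held 15901193 to 20296087 reads in listed genes, and the number of reads did not separate the groups (exact permutation p = 0.657). In replicate 3 of siControl CB and replicate 2 of siAPC CB, values fell with the GC content of genes relative to the other replicates of their group (Spearman correlations across 10174 genes of -0.520 and -0.585, against 0.0468 to 0.535 in the other cell body libraries), and replicate 2 of both Ps groups showed such a trend as well (-0.592 in siControl and -0.642 in siAPC). Libraries of different groups that carried numbers from the same pair, 1 and 2 or 3 and 4, also deviated from their group means together, with a mean Pearson correlation across genes of 0.16 over 48 pairs of libraries, against -0.151 for the other 48. Between siControl CB and siAPC CB these means were 0.00356 and 0.0154. The labels name no batch. For named genes that lose their call in 1 pair of numbers or without the GC-trend libraries, and for lists whose counts differ most between the pairs, those values are given, and a difference between the pairs was not tested.

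Of the 13015 RNAs, 1743 (13.4%) changed with siAPC, and the rises were larger than the falls. RNAs that rose numbered 979 (7.52%), of which 341 changed over 2-fold and 122 over 4-fold, with a median absolute change of 0.699. RNAs that fell numbered 764 (5.87%), of which 38 changed over 2-fold and 0 over 4-fold, with a median absolute change of 0.372. The median change of all RNAs was -0.0422. A mean log2 CPM of at least 1 was reached by 757 of the 979 RNAs that rose and by 719 of the 764 that fell. In 940 of the RNAs that rose and 682 of those that fell, the 4 siAPC libraries did not overlap the 4 siControl libraries. Over all RNAs, called or not, siAPC CB lay above siControl CB without overlap in 11.1% and below it in 9.73%. With replicate numbers 1 and 2 alone, 568 RNAs rose (4.36%) and 515 fell (3.96%), and with numbers 3 and 4 alone 1253 rose (9.63%) and 1196 fell (9.19%). Without the libraries with a falling GC trend, 783 rose (6.02%) and 735 fell (5.65%). No RNA was called in the opposite direction in any of these fits.

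**Figure D1:**
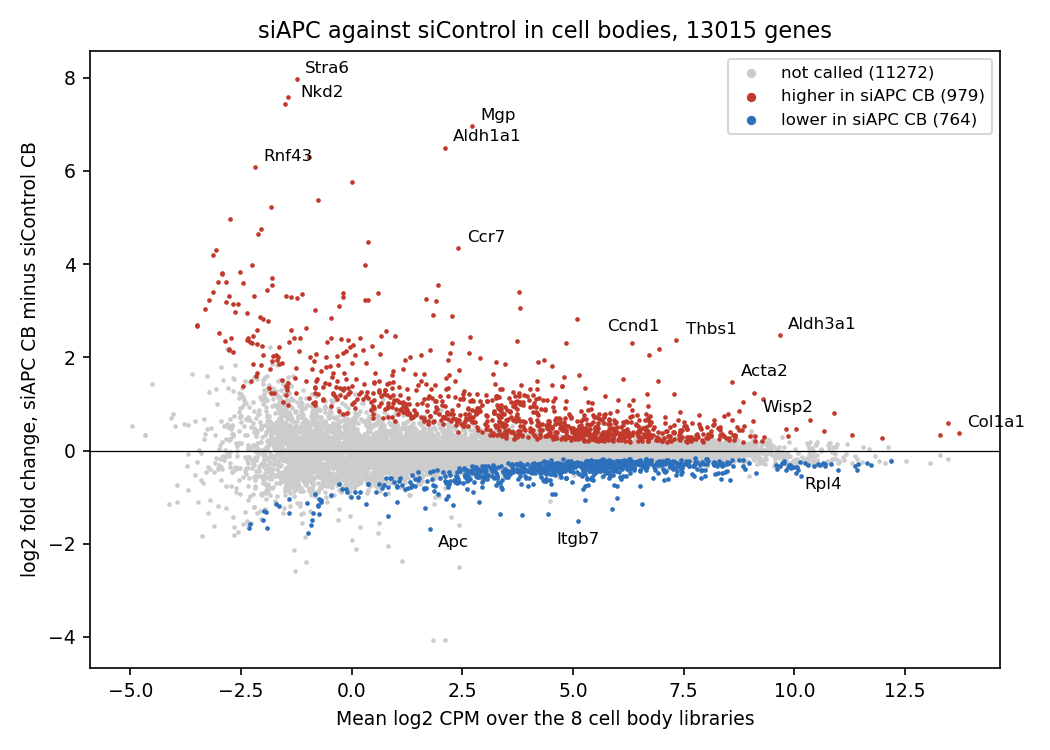
Log2 fold change (siAPC CB minus siControl CB) of 13015 genes against their mean log2 CPM over the 8 cell body libraries, with genes that rose in red (979), genes that fell in blue (764) and the others in grey. Rises reach a log2 fold change of 7.98 (Stra6), whereas no called gene lies below -2, and the 9 genes below -2 are uncalled and have names of predicted genes or pseudogenes.

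**Figure D2:**
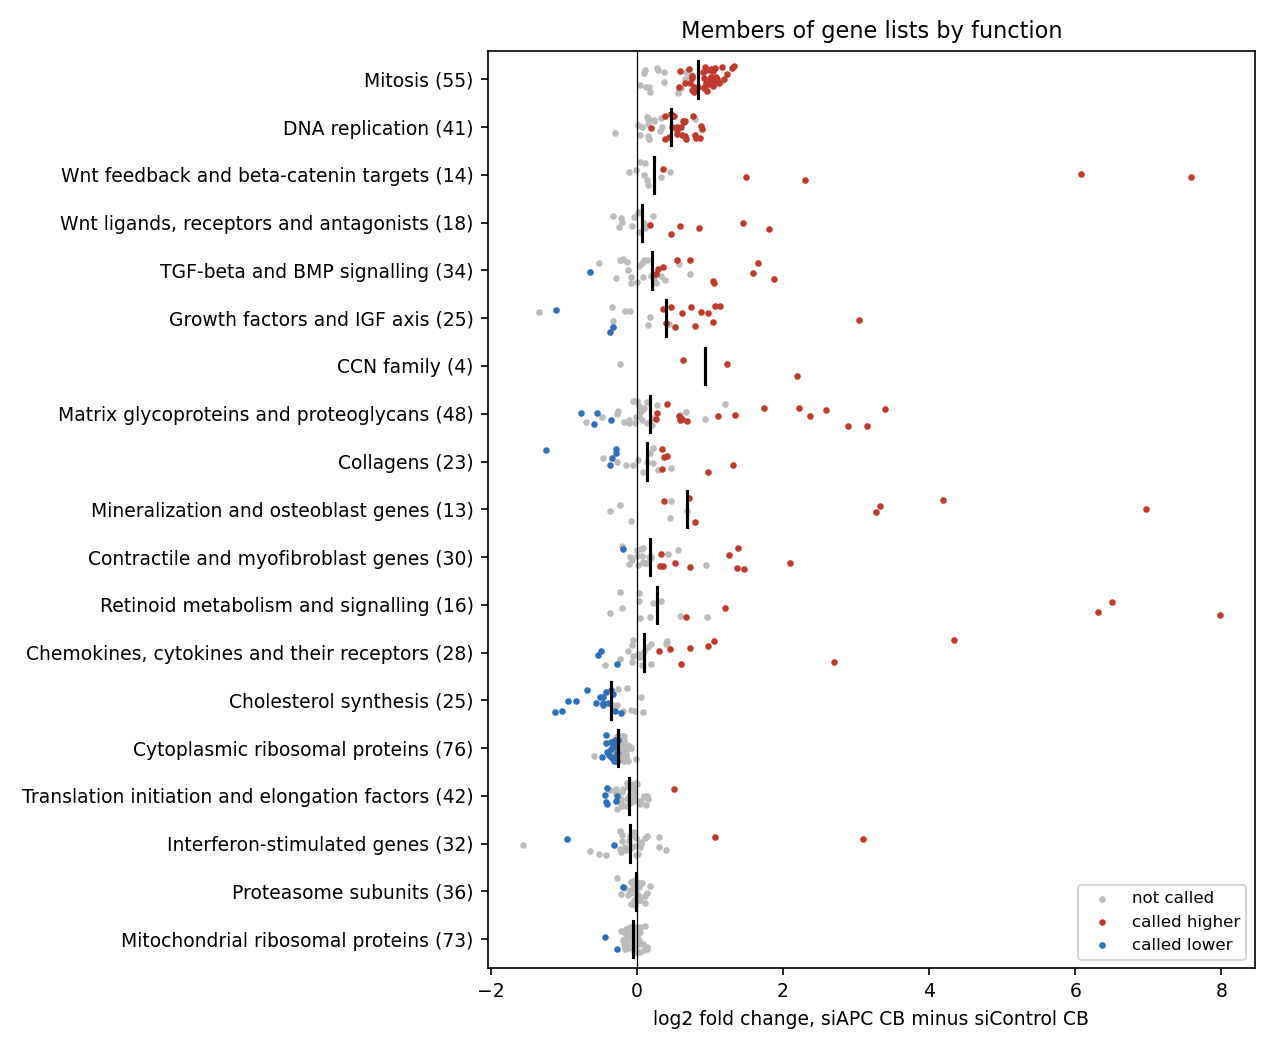
Log2 fold change of each listed member of 19 gene lists by function, with the number of members in parentheses, called members in red or blue and the list median as a black bar. Members called in the mitosis and DNA replication lists all lie to the right of 0, and those called in the cholesterol and cytoplasmic ribosomal protein lists all lie to the left.

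Apc itself (chromosome 18, 34220924 to 34322552, GRCm38) read 2.13, 2.59, 3.54 and 2.17 in siControl CB and 0.54, 1.42, 1.02 and 0.75 in siAPC CB. The groups did not overlap, and Apc fell by 1.67 (SE 0.25, adjusted p = 0.000142), to 31.3% of the control level. Of 19 listed genes of the destruction complex and of catenin turnover, 1 rose and 2 fell, Apc among them. Csnk1e, a casein kinase of the pathway, rose by 0.35 (SE 0.09, adjusted p = 0.0165), and Tnks2, a tankyrase that promotes the turnover of Axin, fell by 0.30 (SE 0.10, adjusted p = 0.0458), with overlapping groups. Without the GC-trend libraries, Csnk1e and Tnks2 had adjusted p of 0.0707 and 0.0629, and with numbers 1 and 2 alone of 0.178 and 0.522. Changes were -0.05 for Axin1, the other scaffold, -0.12 for the kinase Gsk3b and 0.11 for Ctnnb1, the β-catenin gene, none of which passed the test (adjusted p of 0.779, 0.393 and 0.251).

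Feedback inhibitors and targets of β-catenin rose, in a minority of the list and by very unequal amounts. Of 28 genes on the list 14 were in the table, of which 5 rose and 0 fell, with a median change of 0.241. With only genes of a mean of at least 1, 3 rose and the median was 0.14. Nkd2, a cytoplasmic inhibitor that binds Dishevelled, and Rnf43, a ubiquitin ligase that removes Frizzled receptors from the surface, had no reads in siControl CB, and their reads are given below. Ccnd1 (chromosome 7, 144929931 to 144939925), which encodes cyclin D1, read 5.09, 5.37, 5.04 and 5.21 with siControl and 7.23, 7.21, 7.61 and 7.87 with siAPC. It rose by 2.30 (SE 0.17, adjusted p = 2.35e-08), a 4.93-fold change. Apcdd1, a membrane inhibitor of Wnt ligands, read 6.27, 6.25, 6.02 and 6.15 with siControl and 7.61, 7.54, 7.71 and 7.79 with siAPC, and rose by 1.5 (SE 0.12, adjusted p = 6.99e-08). The receptor Ephb2 rose by 0.36 (SE 0.08, adjusted p = 0.00644). For these 3 genes the groups did not overlap.

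Other members of the same list did not pass the test. Myc read 5.34, 5.27, 5.96 and 6.11 with siControl and 5.49, 5.35, 5.74 and 5.68 with siAPC, a change of -0.10 (SE 0.22, adjusted p = 0.807) with overlapping groups. The DNA-binding partners Lef1 and Tcf7 had changes of 0.46 (adjusted p = 0.617, on 7 to 16 reads per library) and 0.10 (adjusted p = 0.612). Znrf3, the relative of Rnf43, had a change of 0.33 (adjusted p = 0.0789), and its groups did not overlap. In Ps its change was 0.44 (adjusted p = 0.0119). Axin2, Nkd1, Notum, Sp5 and Lgr5 were not analysed here.

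A handful of RNAs went from no reads to many. Of all genes, 9 had no read in any siControl CB library and 0 had none in any siAPC CB library. Among them, Stra6, which encodes a receptor for retinol-binding protein, had 100, 107, 158 and 174 reads in siAPC CB, at least 173-fold above 3 reads over the siControl group. Nkd2 had 83, 91, 110 and 118 reads (at least 129-fold), and Rnf43 had 32, 25, 35 and 52 reads (at least 46.3-fold). Krt76, a keratin of oral epithelium, had 83, 69, 108 and 105 reads (at least 117-fold). Each of these genes was present in all 4 siAPC libraries. Smaller numbers were seen for Sectm1b with 22, 18, 10 and 16 reads, the keratin-associated gene Krtap1-5 with 5, 11, 11 and 15, and Alpl, the tissue-nonspecific alkaline phosphatase, with 9, 8, 6 and 15. The last 2 of the 9 were predicted genes that were not called. Requiring at most 3 reads in every siControl library and at least 20 in every siAPC library gave 5 genes, and the reverse gave 0. These genes are in the table through the siAPC or other libraries that passed its filter on low values, and all were named after their values were seen.

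**Figure D3:**
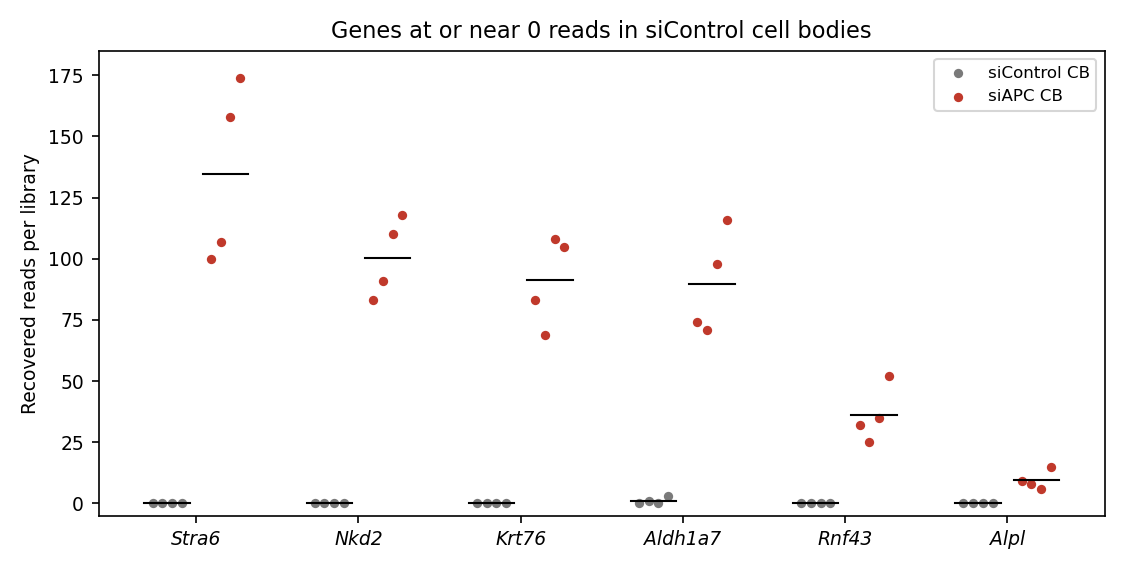
Recovered reads per library of 6 genes at or near 0 reads in siControl cell bodies, with siControl libraries in grey, siAPC libraries in red and group means as bars. All siControl points lie between 0 and 3 reads, and siAPC points reach 174 reads for Stra6.

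Wnt ligands and receptors rose as well, in 6 of 18 listed genes, with 0 falling and a median change of 0.0681. Wnt9a (chromosome 11, 59306928 to 59333552) read 3.55, 3.52, 3.62 and 3.76 with siControl and 5.14, 5.24, 5.68 and 5.64 with siAPC. It rose by 1.81 (SE 0.16, adjusted p = 1.71e-07). The ligand Wnt5a rose by 0.86 (SE 0.14), and the Frizzled receptors Fzd1 and Fzd2 rose by 0.60 (SE 0.13) and 0.47 (SE 0.08), with adjusted p of at most 0.00415. The groups of all 4 genes were separate.

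Among TGF-β and BMP genes, 10 of 34 rose and 1 fell, with a median change of 0.214, or 0.0814 with only genes of a mean of at least 1. With numbers 3 and 4 alone 9 rose and 4 fell. Smad6, an inhibitory Smad of the BMP branch, rose by 1.05 (SE 0.23, adjusted p = 0.00354), although with numbers 1 and 2 alone its change was 0.68 (adjusted p = 0.0763). Tgfbr2, the type II TGF-β receptor, rose by 0.73 (SE 0.08, adjusted p = 5.74e-06). Ltbp2 rose by 1.05 (SE 0.10) while Ltbp4, another protein of the family that holds latent TGF-β in the matrix, fell by 0.63 (SE 0.08), with adjusted p of 6.99e-07 and 3.58e-05. Outside the list, Pmepa1, a TGF-β target that restrains Smad signalling, read 3.55, 3.72, 3.58 and 3.84 with siControl and 6.33, 6.27, 6.60 and 6.76 with siAPC, a rise of 2.82 (SE 0.12, adjusted p = 9.88e-12). Smad7, Id1 and Tgfb1 had changes of 0.33, -0.18 and -0.08 with overlapping groups and did not pass the test (adjusted p of 0.422, 0.64 and 0.629).

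Growth factors were among the lists with the highest share of rises, 13 of 25 (52%, against 7.52% of all RNAs), with 3 falling and a median of 0.399. Ptn, the heparin-binding factor pleiotrophin, read 2.26, 2.11, 2.76 and 2.30 with siControl and 3.50, 3.56, 3.40 and 3.29 with siAPC, a rise of 1.07 (SE 0.16, adjusted p = 0.00015). Hbegf, a ligand of the EGF receptor, rose by 1.14 (SE 0.37, adjusted p = 0.0481), and Pdgfb, a ligand of PDGF receptors, rose by 1.04 (SE 0.26, adjusted p = 0.0113). Hbegf had an adjusted p of 0.0871 without the GC-trend libraries, and Pdgfb one of 0.17 with numbers 1 and 2 alone. Igf1, named after its values were seen, had 0, 1, 0 and 0 reads with siControl and 5, 4, 5 and 7 with siAPC (adjusted p = 0.00203, or 0.111 with numbers 1 and 2 alone).

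Kitl, the ligand of the receptor Kit, was 1 of the 3 genes of this list that fell. It read 2.96, 3.23, 4.57 and 2.99 with siControl and 2.45, 2.89, 1.88 and 2.10 with siAPC, a fall of 1.10 (SE 0.28, adjusted p = 0.0128). Replicate 3 of siControl, one of the libraries with a GC trend, was the highest. With numbers 1 and 2 alone the change was -0.42 (adjusted p = 0.271), and with numbers 3 and 4 alone it was -1.79 (adjusted p = 0.00293). In Ps the change of Kitl was -0.59 (adjusted p = 0.154).

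Receptor tyrosine kinases gave 6 rises and 2 falls among 24 (33.3%, against 13.4% of all RNAs). The counts were 5 and 1 in numbers 1 and 2 and 5 and 5 in numbers 3 and 4. Fgfr2, a receptor for fibroblast growth factors, read 0.99, 0.84, 0.65 and 0.72 with siControl and 2.55, 2.29, 2.30 and 2.66 with siAPC, a rise of 1.65 (SE 0.17, adjusted p = 1.35e-06). Pdgfrb, a PDGF receptor, read 8.32, 8.28, 8.27 and 8.37 with siControl and 9.28, 9.26, 9.43 and 9.47 with siAPC, a rise of 1.05 (SE 0.10, adjusted p = 4.67e-07), and Pdgfra, the other PDGF receptor, chosen after its value was seen, fell by 0.40 (SE 0.09, adjusted p = 0.00707). With numbers 1 and 2 alone the change of Pdgfra was -0.22 (adjusted p = 0.159). Fgfrl1, an FGF receptor without a kinase domain, rose by 0.84 (SE 0.13), and Flt1, a VEGF receptor, fell by 0.49 (SE 0.10), with adjusted p of 0.000137 and 0.00285.

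In the smaller signalling lists, Notch genes gave 3 rises and 0 falls among 14, with Notch2 at 0.26 (SE 0.06, adjusted p = 0.0104), and Hedgehog genes gave 1 rise and 1 fall among 8. Of the latter, the co-receptor Cdon rose by 0.56 (SE 0.06) and Gli1, a transcription factor that is also a target of the pathway, fell by 0.67 (SE 0.18), with adjusted p of 6.66e-06 and 0.015. Notch2 and Gli1 had adjusted p of 0.219 and 0.205 with numbers 1 and 2 alone, and of 0.0686 and 0.0678 without the GC-trend libraries. Immediate early genes, which respond to LPA and serum, gave 4 rises and 4 falls among 34 with a median of -0.0508. The balance differed by pair, with 7 rises and 3 falls in numbers 1 and 2 (median 0.0434) and 4 rises and 11 falls in numbers 3 and 4 (median -0.0789). Dusp4, a phosphatase of MAP kinases, rose by 1.17 (SE 0.14, adjusted p = 1.29e-05), and Klf10 fell by 0.61 (SE 0.11, adjusted p = 0.000565).

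Genes of mitosis were the cell cycle list with the highest share of rises. Of 55 genes of the mitosis list, all of them in the table, 37 rose and 0 fell, with a median change of 0.845. The rises numbered 24 with numbers 1 and 2 alone (median 0.642) and 33 with numbers 3 and 4 alone (median 0.984). Plk1, the kinase that drives entry into mitosis and spindle assembly, read 3.71, 3.87, 3.18 and 3.30 with siControl and 4.75, 4.59, 4.92 and 5.11 with siAPC. It rose by 1.33 (SE 0.14, adjusted p = 2.83e-06). Bub1b, a spindle checkpoint kinase, read 3.31, 3.41, 2.70 and 2.98 with siControl and 4.22, 4.08, 4.34 and 4.42 with siAPC, a rise of 1.17 (SE 0.18, adjusted p = 0.000135). Kif20a, a kinesin of cytokinesis, rose by 1.23 (SE 0.14, adjusted p = 4.59e-06). Cdc25c, the phosphatase that activates Cdk1, rose by 1.30 (SE 0.24, adjusted p = 0.00104), with 0.64 (adjusted p = 0.14) in numbers 1 and 2 and 1.95 (adjusted p = 8.21e-05) in numbers 3 and 4. Cdk1 itself, named after its value was seen, rose by 0.76 (SE 0.13, adjusted p = 0.000368). For each of these 5 genes all siAPC libraries were above all siControl libraries. The proliferation marker Mki67 read -0.12, 0.20, 1.93 and -0.96 with siControl and 0.34, 2.18, 0.55 and 0.64 with siAPC, a change of 0.67 (SE 0.51, adjusted p = 0.437) with overlapping groups. Its highest values were in the libraries with a falling GC trend.

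The promoters of mitosis genes are known for the cell cycle homology region (CHR), a short element bound by repressor complexes outside the late cell cycle, and for CCAAT boxes. Because these genes moved as a group, their promoters were searched in the RefSeq windows (GRCm38.p6) of 250 bases before to 50 bases after each start site, on both strands. The CHR letters TTTGAA were in 38 of 50 promoters of 47 matched mitosis genes (76%) and in 12.1% of 12326 promoters of 9649 matched genes of the table. At least 2 CCAAT boxes were in 48% of the mitosis promoters and in 14.3% of all. This was not particular to mitosis, with 38.5% in the DNA replication list and 40.9% in the cholesterol list, whose called genes fell. The contractile, retinoid and β-catenin target lists had 22.6%, 19.2% and 7.14%. The CHR letters do not overlap those of CCAAT, but they share letters with the TCF motif CTTTGAT used below. The following 100-base windows show the CHR in genes that rose, with the CHR on either strand in capitals. Members were first left out by their place in the genome, among them Cdc25c and Kif20a, whose rises, given above, were larger. Of the called members kept, those shown have the highest log2 fold change. Their matches all lie before the start site, and each gene has 1 listed promoter.
Ube2c: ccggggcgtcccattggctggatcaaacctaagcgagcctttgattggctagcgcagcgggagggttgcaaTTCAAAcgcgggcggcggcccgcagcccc
Kif2c: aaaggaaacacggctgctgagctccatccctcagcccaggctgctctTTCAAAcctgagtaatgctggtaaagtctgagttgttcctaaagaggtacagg
Cdc20: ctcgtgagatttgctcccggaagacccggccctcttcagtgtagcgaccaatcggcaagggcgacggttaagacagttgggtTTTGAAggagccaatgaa
Espl1: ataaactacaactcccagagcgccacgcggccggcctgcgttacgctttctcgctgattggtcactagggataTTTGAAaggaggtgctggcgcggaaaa

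Ube2c, the ubiquitin-conjugating enzyme of the anaphase-promoting complex (window chr2:164769829-164769928, plus strand), had its CHR 29 bases before the start site. It read 4.12, 4.33, 3.64 and 3.98 with siControl and 5.10, 4.96, 5.05 and 5.24 with siAPC, a rise of 1.07 (SE 0.15). Cdc20 (chr4:118437344-118437443, minus strand), the activator of that complex, had it 18 bases before the start and rose by 1.02 (SE 0.13). The kinesin Kif2c (chr4:117178823-117178922, minus strand) had it 103 bases before the start and rose by 1.06 (SE 0.19). This window lies inside the gene as annotated (117159639 to 117182639), not at its upstream end. Espl1 (chr15:102296193-102296292, plus strand), the separase that cleaves cohesin, had its CHR 27 bases before the start and rose by 1.02 (SE 0.20), with 0.46 (adjusted p = 0.142) in numbers 1 and 2. Groups did not overlap for any of the 4. They were named by the sequence rule above after values were seen, and a match of letters is a description of the window only.

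DNA replication genes rose in 24 of 41, with 0 falling and a median of 0.466, and here the pairs of replicate numbers were far apart. With numbers 1 and 2 alone 2 rose (median 0.16), and with numbers 3 and 4 alone 31 rose and 1 fell (median 0.782). Without the GC-trend libraries 14 rose. Tk1, thymidine kinase, read 5.31, 5.41, 4.53 and 4.62 with siControl and 5.82, 5.65, 5.93 and 6.04 with siAPC, a rise of 0.89 (SE 0.19, adjusted p = 0.00287). Its siAPC libraries were close together, while replicates 3 and 4 of siControl lay below replicates 1 and 2. Rrm2, a subunit of ribonucleotide reductase, rose by 0.88 (SE 0.15, adjusted p = 0.000338), with 0.73 and 1.02 in the pairs of numbers. Pole, a polymerase subunit, and Gins1, of the replicative helicase, rose by 0.81 and 0.87 (adjusted p of 0.00415 and 0.00409), but with numbers 1 and 2 alone their adjusted p were 0.109 and 0.143. The replication clamp Pcna had a change of 0.16 (adjusted p = 0.366). The E2F letters TTTNNCGC were in 38.5% of 39 replication promoters and in 8.35% of all. They were also in 20% of the mitosis promoters, and in 5.78% of the promoters of all RNAs that rose.

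**Figure D4:**
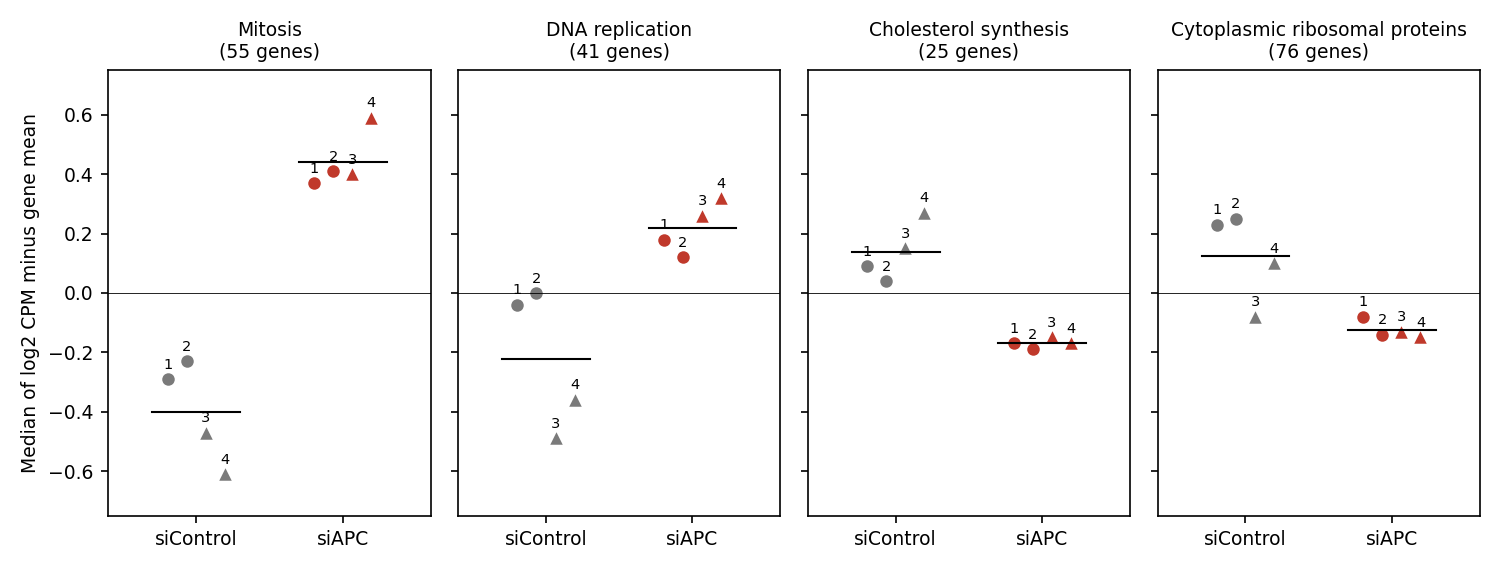
Median over the members of a list of each library's log2 CPM minus the gene's mean over the 8 cell body libraries, for 4 lists, with replicate numbers beside the points, circles for numbers 1 and 2, triangles for 3 and 4, and group means as bars. Mitosis medians lie between -0.61 and -0.23 in siControl and between 0.37 and 0.59 in siAPC, and in the replication list siControl replicates 3 and 4 lie below 1 and 2.

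Of 22 listed G1 regulators 2 rose and 0 fell, a share of 9.09% against 7.52% of all RNAs, and the median was 0.0321. Over the alternatives 1 to 6 rose, with 6 in numbers 3 and 4 alone. Besides Ccnd1, E2f1 rose by 0.32 (SE 0.10, adjusted p = 0.037), with adjusted p of 0.294 in numbers 1 and 2, 0.014 in numbers 3 and 4 and 0.102 without the GC-trend libraries. The other D cyclins, Ccnd2 and Ccnd3, had changes of -0.07 and -0.04, and the inhibitor Cdkn1a one of 0.05, with overlapping groups and adjusted p of 0.749, 0.827 and 0.823. For Ccnd2 the change in Ps was -0.62 (adjusted p = 0.000356), and the difference between fractions had an adjusted p of 0.789.

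Among genes with a mean of at least 1, the highest rises were those of a mineralization gene and a retinoid gene. The first was Mgp, matrix Gla protein, which inhibits calcification, at 6.97 (SE 0.32, adjusted p = 2.79e-11), with 6 to 19 reads per library in siControl and 1183 to 1678 in siAPC. Of 26 genes on its list 13 were in the table, of which 7 rose and 0 fell, with a median of 0.692. With only genes of a mean of at least 1 the median was 0.37. Over the alternatives 4 to 7 rose and 0 to 1 fell. Runx2, the osteoblast transcription factor, read 4.90, 4.88, 4.85 and 4.78 with siControl and 5.25, 5.21, 5.18 and 5.25 with siAPC, a rise of 0.37 (SE 0.07, adjusted p = 0.00061). Spp1, osteopontin, rose by 0.79 (SE 0.22, adjusted p = 0.0184), with an adjusted p of 0.0611 without the GC-trend libraries. The phosphate transporter Slc20a1 rose by 0.71 (SE 0.09, adjusted p = 1.59e-05).

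Retinoid genes gave 5 rises and 0 falls among 16, with a median of 0.281. With only genes of a mean of at least 1 the median was 0.113. Over the alternatives 3 to 6 rose and 0 to 2 fell. Aldh1a1 (chromosome 19, 20492715 to 20643465), which makes retinoic acid from retinal, read -0.55, -1.92, -1.15 and -0.96 with siControl and 5.10, 5.13, 5.41 and 5.81 with siAPC. It rose by 6.50 (SE 0.32, adjusted p = 4.74e-11), with siControl libraries at 4 to 11 reads and siAPC libraries at 683 to 987. Its close copy Aldh1a7, also named after values were seen, had 0, 1, 0 and 3 reads with siControl and 74, 71, 98 and 116 with siAPC, and since the copies are near-identical the split of reads between them is uncertain. Rdh10, which makes retinal from retinol, read 5.90, 5.89, 6.11 and 6.36 with siControl and 7.19, 7.13, 7.32 and 7.43 with siAPC, a rise of 1.2 (SE 0.13, adjusted p = 1.94e-06). Adh7, an alcohol dehydrogenase that also acts on retinol, rose by 0.67 (SE 0.16, adjusted p = 0.00713). The other 11 genes of the list were not called, among them the receptor Rara with a change of 0.05 (adjusted p = 0.758). Outside the list, Aldh3a1, an aldehyde dehydrogenase, read 8.91, 8.88, 7.92 and 8.05 with siControl and 11.13, 11.03, 10.66 and 10.82 with siAPC, a rise of 2.47 (SE 0.20, adjusted p = 6.78e-08).

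The other RNAs with the highest rises had varied roles. Ccr7, a chemokine receptor of leukocytes, read 0.42, 0.47, -0.78 and 0.85 with siControl and 4.30, 4.35, 4.79 and 4.90 with siAPC (rise 4.34, SE 0.30). Tmem100, a membrane protein, read 0.36, 0.12, -0.33 and 0.57 with siControl and 3.72, 3.81, 3.59 and 3.84 with siAPC (rise 3.56, SE 0.17). Ntn5, of the netrin family, Selenbp1, a selenium-binding protein, and Cd74, the invariant chain of MHC class II, rose by 3.21 (SE 0.22), 3.06 (SE 0.15) and 2.90 (SE 0.17). Adjusted p for these 5 were at most 6.82e-09. For each of the genes plotted among the highest, the gap between the groups was wider than the range of either group. These genes were chosen for large changes and separate groups, so a wide gap follows in part from that choice.

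**Figure D5:**
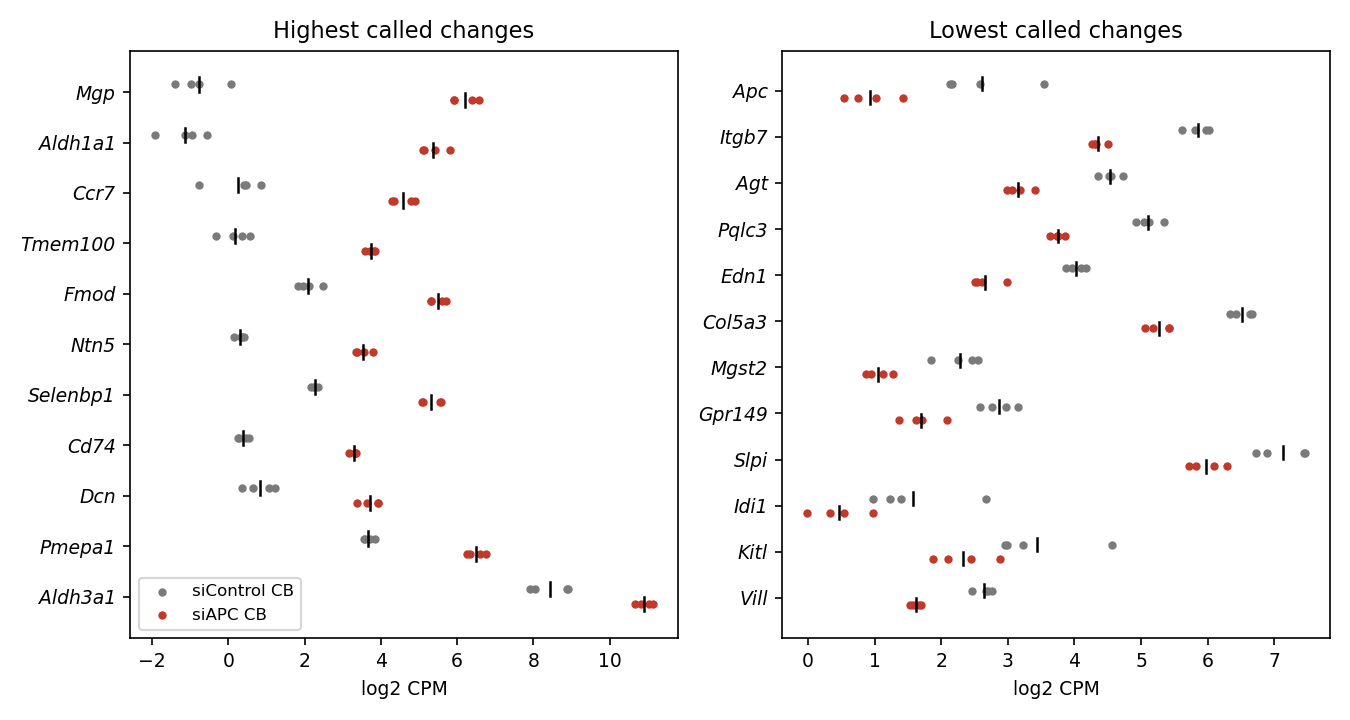
Log2 CPM in each of the 4 siControl CB libraries (grey) and 4 siAPC CB libraries (red), with group means as bars, for genes among the 12 highest (left, 1 not shown) and 12 lowest (right) called changes whose groups do not overlap and whose mean is 1 or higher. Changes at left run from 2.47 (Aldh3a1) to 6.97 (Mgp), and those at right from -1.67 (Apc) to -1.03 (Vill), where Idi1 and Kitl each have 1 high siControl library.

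Matrix genes changed in both directions, with rises more frequent among glycoproteins and proteoglycans. Of 48 listed, 17 rose and 4 fell, with a median of 0.179. The small leucine-rich proteoglycan Fmod, fibromodulin, read 1.82, 1.95, 2.11 and 2.48 with siControl and 5.32, 5.32, 5.70 and 5.61 with siAPC, a rise of 3.40 (SE 0.18, adjusted p = 8.65e-11). Its relative Dcn, decorin, rose by 2.90 (SE 0.20, adjusted p = 5.71e-09), more in numbers 1 and 2 (3.43) than in 3 and 4 (2.37). Thbs1, thrombospondin 1, read 6.05, 6.15, 6.03 and 6.31 with siControl and 8.58, 8.59, 8.35 and 8.53 with siAPC, a rise of 2.38 (SE 0.12, adjusted p = 4.53e-11). The microfibril protein Mfap4 rose by 1.74 (SE 0.21), and Fn1, fibronectin, rose by 0.58 (SE 0.10), with adjusted p of 1.36e-05 and 0.000395.

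Among collagens the changes were split, with 6 rises and 5 falls of 23 (47.8%, against 13.4% of all RNAs). With numbers 1 and 2 alone, however, 6 rose and 1 fell. Col5a3, a minor chain of fibrillar type V collagen, read 6.42, 6.33, 6.64 and 6.66 with siControl and 5.42, 5.18, 5.42 and 5.06 with siAPC, a fall of 1.25 (SE 0.12, adjusted p = 7.4e-07). Col8a1 read 3.16, 3.19, 3.77 and 3.38 with siControl and 4.49, 4.8, 4.63 and 4.85 with siAPC, a rise of 1.31 (SE 0.17, adjusted p = 1.82e-05). The basement membrane chains Col4a4 and Col4a6 rose by 0.98 (SE 0.16) and 0.42 (SE 0.07). The chains of type I collagen, Col1a1 and Col1a2, named after their values were seen, rose by 0.37 (SE 0.11, adjusted p = 0.0291) and 0.34 (SE 0.09, adjusted p = 0.0179), and with numbers 1 and 2 alone their adjusted p were 0.107 and 0.0621. Without the GC-trend libraries that of Col1a1 was 0.0512. Proteases and their inhibitors gave 5 rises and 1 fall among 32, among them Plau, the urokinase, at 0.92 (SE 0.20, adjusted p = 0.00385). In this list 2 rose and 2 fell with numbers 1 and 2 alone, and 5 rose and 5 fell with numbers 3 and 4 alone. Of 19 genes of collagen processing and crosslinking 1 rose and 1 fell, the latter Adamts14, a procollagen protease, at -0.98 (SE 0.25, adjusted p = 0.0131). Adamts14 had an adjusted p of 0.11 with numbers 1 and 2 alone and of 0.0637 without the GC-trend libraries.

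The CCN family, secreted proteins that bind matrix and growth factors, rose in 3 of 4 listed members with a median of 0.932. Ctgf read 5.40, 5.40, 6.20 and 6.42 with siControl and 7.91, 7.89, 8.12 and 8.24 with siAPC, a rise of 2.19 (SE 0.26, adjusted p = 7.59e-06). Wisp2 rose by 1.24 (SE 0.09, adjusted p = 2.11e-08) and Wisp1 by 0.63 (SE 0.13, adjusted p = 0.00198). Cyr61 read 1.98, 1.85, 3.30 and 3.48 with siControl and 2.61, 2.06, 2.62 and 2.43 with siAPC, so that its change of -0.22 (SE 0.49, adjusted p = 0.816) combined 0.42 (adjusted p = 0.346) in numbers 1 and 2 with -0.87 (adjusted p = 0.000457) in numbers 3 and 4.

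Contractile and myofibroblast genes rose in 10 of 30, with 1 fall and a median of 0.182, and the count was 10 with either pair of numbers alone, with medians of 0.295 in numbers 1 and 2 and 0.0854 in numbers 3 and 4. Acta1 (chromosome 8, 123891769 to 123894751), the skeletal muscle actin, read 1.77, 1.18, 1.45 and 2.03 with siControl and 3.70, 3.58, 3.78 and 3.78 with siAPC, a rise of 2.10 (SE 0.19, adjusted p = 2.5e-07). Acta2, the smooth muscle actin that marks myofibroblasts, read 8.03, 7.95, 7.70 and 7.76 with siControl and 9.35, 9.43, 9.29 and 9.25 with siAPC, a rise of 1.47 (SE 0.08, adjusted p = 8.75e-11). Myl9, a regulatory myosin light chain, rose by 1.38 (SE 0.08, adjusted p = 1.33e-09), and Actg2, an enteric smooth muscle actin, by 1.37 (SE 0.17, adjusted p = 1.55e-05). Actin genes are near-identical in their coding parts, so the split of reads among them is uncertain. The cytoplasmic actin Actb had a change of 0.15 (adjusted p = 0.221), and Srf, the transcription factor of many contractile genes, one of 0.04 (adjusted p = 0.885).

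Srf binds the CArG box, which was searched on both strands. The box was in 5 of 31 promoters of 26 matched contractile genes (16.1%) and in 1.34% of all promoters. It was also in 2 of 14 promoters of 9 matched β-catenin targets (14.3%). In the mitosis, replication, cholesterol and retinoid lists the share was 0 to 2.56%. The windows of Acta1 (chr8:123894794-123894893, minus strand) and Myl9 (chr2:156775258-156775357, plus strand) are shown because both genes rose and hold the box 73 and 161 bases before the start site. The CArG box is in capitals.
Acta1: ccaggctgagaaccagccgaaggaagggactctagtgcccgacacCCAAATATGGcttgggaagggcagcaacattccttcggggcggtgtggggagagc
Myl9: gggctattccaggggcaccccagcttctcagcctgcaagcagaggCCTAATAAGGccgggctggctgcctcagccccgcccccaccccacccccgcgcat

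The TCF letters CTTTGAT were in 2.5% of all promoters and in 0 of 14 promoter windows of 9 matched β-catenin targets, which describes these windows only.

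Other cytoskeletal lists changed at shares near that of all RNAs. Actin nucleation genes gave 4 rises and 1 fall among 34 and tubulins with microtubule regulators 4 rises and 2 falls among 37. Stmn1, which destabilizes microtubules, read 4.06, 4.20, 3.25 and 3.60 with siControl and 4.89, 4.72, 4.84 and 4.97 with siAPC, a rise of 1.08 (SE 0.17, adjusted p = 0.000225), with 0.68 in numbers 1 and 2 and 1.48 in numbers 3 and 4. Tubb4a, a tubulin best known from neurons, fell by 0.76 (SE 0.17, adjusted p = 0.00407), although neither pair of numbers passed the test alone (adjusted p of 0.0794 and 0.0742).

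Integrins gave 5 rises and 2 falls among 17, with 5 and 1 in numbers 1 and 2 (median 0.263) and 4 and 4 in numbers 3 and 4 (median -0.0796). Itgb7, a β subunit best known from lymphocytes, read 6.02, 5.97, 5.62 and 5.81 with siControl and 4.31, 4.32, 4.51 and 4.26 with siAPC, a fall of 1.51 (SE 0.10, adjusted p = 2.26e-09). Itgb4, the partner of α6 in hemidesmosomes, rose by 0.84 (SE 0.10), the collagen receptor subunit Itga10 rose by 0.79 (SE 0.14), and Itgb5, a vitronectin receptor subunit, rose by 0.65 (SE 0.07), with adjusted p of at most 0.000683. Among focal adhesion proteins 4 of 33 rose and 0 fell, a share of 12.1% against 13.4% of all RNAs. With numbers 1 and 2 alone 7 rose and 0 fell, and with numbers 3 and 4 alone 5 rose and 7 fell.

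Cell-cell junction genes gave 5 rises and 1 fall among 28 (21.4%, against 13.4% of all RNAs). Gja1, the gap junction protein connexin 43, read 3.11, 2.92, 3.23 and 3.23 with siControl and 4.40, 4.51, 4.48 and 4.69 with siAPC, a rise of 1.40 (SE 0.13, adjusted p = 4.72e-07). Cdh15, a cadherin of muscle precursors, rose by 1.90 (SE 0.25, adjusted p = 2.24e-05), and the adhesion molecule Alcam rose by 1.64 (SE 0.28, adjusted p = 0.000439). Guidance genes gave 3 rises and 2 falls among 36, a share of 13.9% against 13.4% of all RNAs. Of these genes, Slit2, a ligand of Robo receptors, rose by 0.84 (SE 0.15, adjusted p = 0.00095, or 0.0564 with numbers 1 and 2 alone).

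Chemokine and cytokine genes gave 8 rises and 3 falls among 28. Apart from Ccr7, Lif, a cytokine of the interleukin 6 family, read 3.25, 3.25, 3.49 and 3.55 with siControl and 4.32, 4.28, 4.47 and 4.36 with siAPC, a rise of 0.97 (SE 0.17, adjusted p = 0.000532). The chemokines Ccl8 and Ccl9 rose by 1.06 (SE 0.23, adjusted p = 0.00384) and 0.73 (SE 0.08, adjusted p = 2.44e-06), the former with an adjusted p of 0.101 in numbers 1 and 2. Complement and acute phase genes gave 4 rises and 0 falls among 14, with C3, the central complement component, at 1.33 (SE 0.14, adjusted p = 1.52e-06). Prostaglandin genes were split, with 2 rises and 2 falls among 11, and Ptgis, prostacyclin synthase, rose by 0.78 (SE 0.06, adjusted p = 9e-08).

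Interferon-stimulated genes were mixed, with 2 rises and 2 falls among 32 (12.5%, against 13.4% of all RNAs) and a median of -0.0929. Ifi27l2a rose by 1.07 (SE 0.10, adjusted p = 5.43e-07). Of 18 antigen presentation genes 0 rose and 1 fell, H2-T22 at -0.70 (SE 0.15, adjusted p = 0.00305), and as a member of a multigene family its reads may be split among copies. Cd74, whose rise is given above, was not on this list. The RNA interference machinery gave 1 rise and 2 falls among 15.

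The RNAs that fell most had varied roles. Besides Apc, Itgb7, Col5a3 and Kitl, the 12 lowest held Agt, angiotensinogen, which read 4.73, 4.55, 4.36 and 4.52 with siControl and 2.99, 3.06, 3.18 and 3.41 with siAPC, a fall of 1.38 (SE 0.12, adjusted p = 1.87e-07). Edn1, which encodes the vasoconstrictor endothelin 1, read 4.10, 4.17, 3.87 and 3.97 with siControl and 2.99, 2.62, 2.51 and 2.54 with siAPC, a fall of 1.36 (SE 0.17, adjusted p = 1.93e-05). Both encode precursors of vasoactive peptides. Slpi, a secreted inhibitor of leukocyte proteases, fell by 1.15 (SE 0.19), the glutathione transferase Mgst2 by 1.23 (SE 0.19) and the orphan receptor Gpr149 by 1.17 (SE 0.16). Pqlc3, a membrane protein with PQ loops, fell by 1.36 (SE 0.13) and Vill, of the villin family, by 1.03 (SE 0.14). Adjusted p of these 5 were at most 0.000409, and the groups of each were separate.

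Cholesterol synthesis genes fell together. Of 25 listed genes 16 fell and 0 rose, with a median of -0.353, whereas 5.87% of all RNAs fell. The falls numbered 9 without the GC-trend libraries, 9 with numbers 1 and 2 alone (median -0.304) and 17 with numbers 3 and 4 alone (median -0.426). Hmgcs1, the cytosolic HMG-CoA synthase at the start of the pathway, read 4.52, 4.39, 5.69 and 5.34 with siControl and 3.76, 4.09, 4.08 and 4.24 with siAPC, a fall of 0.94 (SE 0.24, adjusted p = 0.0119). In numbers 1 and 2 its change was -0.53 (adjusted p = 0.103) and in numbers 3 and 4 it was -1.35 (adjusted p = 3.77e-06). Idi1, the isopentenyl diphosphate isomerase, read 1.40, 0.98, 2.67 and 1.23 with siControl and -0.01, 0.98, 0.33 and 0.54 with siAPC, a fall of 1.11 (SE 0.32, adjusted p = 0.0239). It changed by -0.71 (adjusted p = 0.279) in numbers 1 and 2 and by -1.51 (adjusted p = 0.0124) in numbers 3 and 4, and its groups met at 0.98.

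Insig1, which holds the SREBP activator back in the endoplasmic reticulum, fell by 0.83 (SE 0.25, adjusted p = 0.0295) with overlapping groups. Without the GC-trend libraries, Hmgcs1 and Insig1 no longer passed the test (adjusted p of 0.0597 and 0.189). Sqle, squalene epoxidase, named after its value was seen, fell by 0.33 (SE 0.07, adjusted p = 0.0037, or 0.15 with numbers 1 and 2 alone), and the transcription factor Srebf2 had a change of -0.02 (adjusted p = 0.908). The sterol element TCACNCCAC of SREBP was in 1 of 22 cholesterol promoters (4.55%), that of Hmgcs1 (chr13:119690168-119690267, plus strand), and in 1.17% of all. It lay 137 bases before the start site, in capitals in the window shown for this gene.
Hmgcs1: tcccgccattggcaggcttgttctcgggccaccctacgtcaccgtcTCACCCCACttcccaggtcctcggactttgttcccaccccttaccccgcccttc

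Fatty acid and lipid genes gave 2 rises and 4 falls among 36. Acly, which makes cytosolic acetyl-CoA from citrate, read 8.71, 8.72, 8.63 and 8.73 with siControl and 8.29, 8.25, 8.28 and 8.23 with siAPC, a fall of 0.44 (SE 0.07, adjusted p = 0.000184). Acss2, which makes it from acetate, fell by 0.43 (SE 0.07, adjusted p = 0.000371). Neither gene had overlapping groups. Fasn, the fatty acid synthase, had a change of 0.01 (adjusted p = 0.988), and Plin2, which coats lipid droplets, rose by 0.66 (SE 0.08, adjusted p = 1.62e-05). Glycolysis gave 1 rise and 3 falls among 21 (19%) and the TCA cycle 1 rise and 2 falls among 25 (12%), against 13.4% of all RNAs. In the latter list the isocitrate dehydrogenase Idh1, whose product is cytosolic, had a change of -0.49 (SE 0.07, adjusted p = 3.67e-05).

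Cytoplasmic ribosomal protein genes lay slightly lower as a group, by an amount and a count that varied with the processing. Of 76 genes 22 fell and 0 rose, with a median of -0.256. The falls numbered 31 with numbers 1 and 2 alone (median -0.353), 15 with numbers 3 and 4 alone (median -0.145) and 37 without the GC-trend libraries, and they ranged from 6 to 74 over all alternatives. Rpl5 read 9.41, 9.36, 9.43 and 9.28 with siControl and 8.99, 9.05, 8.72 and 8.81 with siAPC, a fall of 0.48 (SE 0.11, adjusted p = 0.00614). Rpl4, Rpl12 and Rpl22 fell by 0.43 (SE 0.09), 0.42 (SE 0.10) and 0.40 (SE 0.09), with adjusted p of at most 0.00671. In these 4 genes the groups did not overlap, but the median of the whole list was -0.08 in replicate 3 of siControl, the library with a GC trend, and -0.08 in replicate 1 of siAPC, relative to each gene's mean. Ribosomal protein genes have many processed pseudogenes, so reads may be split among copies. In Ps, 67 of the 76 fell.

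Translation factors gave 1 rise and 6 falls among 42, with 1 and 5 in numbers 1 and 2 and 4 and 12 in numbers 3 and 4. Eef1g, a subunit of elongation factor 1, read 11.74, 11.72, 11.41 and 11.61 with siControl and 11.23, 11.14, 11.24 and 11.19 with siAPC, a fall of 0.42 (SE 0.08, adjusted p = 0.00183). Pabpc1, the cytoplasmic poly(A) binding protein, fell by 0.40 (SE 0.07, adjusted p = 0.001), and Eif2b2, a subunit of the exchange factor of eIF2, rose by 0.51 (SE 0.08, adjusted p = 0.000329). Mitochondrial ribosomal proteins (0 rises and 2 falls among 73) and nuclear-encoded respiratory chain subunits (0 and 5 among 79) had lower shares of changes than all RNAs.

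Proteasome subunits gave 0 rises and 1 fall among 36, splicing factors 2 and 2 among 54, and numbered zinc finger proteins 2 and 3 among 249, all below the 13.4% of all RNAs that changed. With numbers 3 and 4 alone, however, 16 splicing factors and 20 zinc finger proteins fell (medians -0.185 and -0.272), against 1 and 0 with numbers 1 and 2 (medians -0.0303 and -0.0457). Mitochondrial genome mRNAs gave 1 rise and 0 falls among 11 (9.09%). Counts were 4 and 0 among 33 (12.1%) for the unfolded protein response and 3 and 3 among 37 (16.2%) for oxidative stress. Genes of the unfolded protein response gave 2 and 0 with numbers 1 and 2 alone and 6 and 6 with numbers 3 and 4 alone. Without the GC-trend libraries they gave 1 and 0. Lists of p53 targets (4 and 2 among 28, 21.4%), hypoxia (2 and 2 among 22, 18.2%) and lysosome and autophagy genes (6 and 3 among 38, 23.7%) were mixed. The last gave 2 and 7 in numbers 1 and 2 and 8 and 2 in numbers 3 and 4. In the first, the growth arrest gene Gadd45a rose by 1.03 (SE 0.13, adjusted p = 2.03e-05). In the second, Adm, the peptide adrenomedullin, fell by 0.84 (SE 0.16, adjusted p = 0.00123, or 0.121 with numbers 1 and 2 alone), and Ndrg1 rose by 0.58 (SE 0.09, adjusted p = 0.000149).

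Solute carriers gave 25 rises and 7 falls among 188 (13.3% and 3.72%, against 7.52% and 5.87% of all RNAs). The amino acid transporters Slc16a10 and Slc6a7 rose by 1.41 (SE 0.14, adjusted p = 1.35e-06) and 1.33 (SE 0.14, adjusted p = 2.83e-06), in groups that did not overlap. Transcription factors of development gave 7 rises and 2 falls among 48. Klf5 read 0.76, 0.93, 0.80 and 0.77 with siControl and 2.23, 2.06, 2.45 and 2.53 with siAPC, a rise of 1.5 (SE 0.18, adjusted p = 1.08e-05). The homeobox factor Prrx2 rose by 1.33 (SE 0.11), Sox4 by 0.94 (SE 0.13) and Pbx3 by 0.81 (SE 0.13), with adjusted p of at most 0.000307. Of 23 Hox genes 2 rose and 2 fell (17.4%, against 13.4% of all RNAs), the lowest being Hoxd8 at -0.51 (SE 0.06, adjusted p = 1.88e-05).

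The fibroblast identity of the cells was checked with marker genes. Of 21 fibroblast markers 18 were listed, and their summed CPM ran from 37456 to 40802 in siControl CB and from 47724 to 52832 in siAPC CB, with 7 rises and 1 fall. Most of this sum was the matrix genes Col1a1, Col1a2 and Fn1, whose rises are given above (mean log2 CPM of 13.54, 13.11 and 13.19 in siControl CB). Besides Dcn, Pdgfrb, Fn1 and Pdgfra given above, Twist1, a mesenchymal transcription factor, rose by 0.53 (SE 0.09, adjusted p = 0.000298). Of 21 neural and epithelial markers 7 were listed, with a sum of 284 to 365 CPM in siControl CB and 403 to 413 in siAPC CB. Most of this sum was Krt14, a keratin, which rose by 0.31 (SE 0.08, adjusted p = 0.0125, or 0.27 with numbers 1 and 2 alone and 0.0558 without the GC-trend libraries), and the intermediate filament gene Nes rose by 0.65 (SE 0.15, adjusted p = 0.00646). Of 23 blood, endothelial and muscle markers 8 were listed, with sums of 682 to 770 and 1012 to 1182 CPM, or 367 to 438 and 400 to 493 CPM without Pdgfrb, which fibroblasts also express. Lyz2, a lysozyme of macrophages, rose by 0.93 (SE 0.09, adjusted p = 3.52e-07). The defining markers Epcam, Ptprc, Cd3e, Cdh5 and Myod1 were not analysed here, and the part of these markers in the changes above was not tested.

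In Ps, 10.7% of RNAs rose with siAPC and 11.2% fell. The difference between the changes in CB and in Ps passed the test for 3 RNAs (0.0231%), with 492 at an unadjusted p below 0.05. Of the 3, Cyb5r3, a reductase of the endoplasmic reticulum, had a change of 0.05 in CB (SE 0.09, adjusted p = 0.776) and fell by 0.73 in Ps (adjusted p = 1.16e-05). Scd1, the stearoyl-CoA desaturase, had 0.05 in CB (SE 0.07, adjusted p = 0.699) and fell by 0.59 in Ps (adjusted p = 8.74e-06), and both were named after their values were seen. Of 10 RNAs that the study uses as examples of localized or diffuse transcripts, 0 passed the test in CB, with a median of 0.0356, whereas in Ps 8 fell and 0 rose, with a median of -0.44. The study states that its earlier work had found Rab13, Ddr2 and Kank2, among others, to depend on Apc. How far these libraries guided its choice of the rest is not known. The direction of the 10 in Ps is thus not taken as independent evidence. Among the 10, the GTPase Rab13 had a change of 0.09 (adjusted p = 0.645), the collagen receptor Ddr2 one of -0.11 (adjusted p = 0.685) and the adaptor Kank2 one of 0.22 (adjusted p = 0.0926) in CB. In Ps they fell by 0.35, 0.51 and 0.42 (adjusted p of 0.018, 0.0163 and 0.00111). The difference between fractions did not pass the test for any of them (adjusted p of 0.981, 0.981 and 0.0835).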

How the data were processed

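RNA-seq gave 16 libraries, described as stranded total RNA although the study names a kit for mRNA, so the part of RNAs without poly(A) is uncertain. The 8 of the cell bodies (4 siControl, 4 siAPC) carry the comparison. Per the labels and the study's methods, the authors aligned reads to mm10 (STAR 2.4.2a, after bcl2fastq 1.8.4), dropped low genes and deposited log2 CPM values scaled with limma 3.26.1. The counting strand is not given in the sources used here, so overlapping and antisense genes, like near-identical copies, are uncertain. With an offset of 0.5, 100% of 208240 deposited values came out as whole reads within 0.01, and 15901193 to 20296087 reads per cell body library set 3 reads at a log2 CPM of -2.73 to -2.26. Counting limits cover counting error only.

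A linear model with the 4 groups was fitted to all 16 libraries (limma 3.58.1, R 4.3.3) with an intensity trend, and p-values were adjusted by Benjamini-Hochberg. The study speaks of independent replicates and replicate experiments, the labels do not say that they were separate cultures, and p-values measure the spread between these libraries, which may be technical. Single values were compared by exact permutation, two-sided, with a smallest possible p of 0.0286. Same-numbered siControl and siAPC cell body libraries had correlated deviations of 0.273, -0.33, -0.324 and 0.261, so the numbers did not pair them.

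Members and gene lists were chosen with earlier results of these data known. Named genes were Apc, the 12 highest and 12 lowest called genes (mean log2 CPM of at least 1, no overlap, no predicted or pseudogene names) and up to 4 called members per list with the largest changes. Members that define a list's role could be named uncalled, and others were named after their values were seen, as were the motifs. Some genes that these rules would name are not reported here. Gene positions came from GENCODE M21 (GRCm38), where 12426 symbols matched directly, 446 by an older symbol and 143 not at all. Alternatives covered scaling, weights, filters, thresholds, left-out libraries and a replicate block. The splits by replicate number, and a term for the pair of numbers in the fit to all 16 libraries, were added after seeing the data. Scripts were tested on simulated data. Tables and plots used Python 3.11.15, pandas 2.3.3, scipy 1.17.1 and matplotlib 3.10.9.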

Additional observations from a re-analysis of the deposited data

Results flagged for a closer look

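In groups of 4 libraries, 1 library stood far from the other 3 in 16 of the 336 groups examined, and chance alone flags about 1 in 20 groups. In siControl CB the single high values were 4.57 for Kitl (replicate 3), 5.23 for Ephb2 (replicate 4), 1.25 for Gins1 (replicate 2) and 3.33 for Ifi27l2a (replicate 1). The single low values in siControl CB were 3.24 for Znrf3 (replicate 4) and 1.22 for Col4a4 (replicate 2), and in replicate 3 they were 8.63 for Acly, 9.90 for Itgb5, 4.48 for Prrx2 and 2.38 for H2-T22, all as log2 CPM. In siAPC CB the values apart were 3.17 for Cd74 (replicate 2, low), 2.18 for Mki67 (replicate 2, high), 1.35 for Gins1 (replicate 3, low), 5.66 for Ltbp2 (replicate 2, low) and 8.75 for Rpl22 (replicate 1, high). The share of reads from the mitochondrial genome was 1.95% in replicate 3 of siControl CB, the highest of its group.

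The change with siAPC differed between cell bodies and protrusions for Cyb5r3 by 0.78 and for Scd1 by 0.64 (CB minus Ps, log2, adjusted p = 0.0432 for each, limma).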

How the results depend on the processing

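Against 979 RNAs that rose and 764 that fell, array weights gave 1481 and 1957, a fold change above 1.5 in the call gave 572 and 146, and an adjusted p below 0.01 gave 618 and 316. The share of rises among calls, 56.2% in the reported fit, was then 43.1%, 79.7% and 66.2%. With only genes of a mean of at least 1, 780 rose and 767 fell, a share of rises of 50.4%. Correction for GC content and transcript length gave 1191 falls. Numbers 1 and 2 alone gave 568 rises, and numbers 3 and 4 alone gave 1196 falls, both added after seeing the data. A term for the pair of numbers in the fit to all 16 libraries, also added then, gave 1157 rises and 1043 falls. No named gene lost its call with that term, whereas a fit to 1 pair alone has fewer libraries. Leaving out 1 library gave 731 to 897 rises and 427 to 1001 falls, with 427 falls without siAPC CB replicate 4, 502 without siControl CB replicate 1, 479 without siControl CB replicate 4, and 1001 without siControl CB replicate 3. The cause was not tested.

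The replicate block, for numbers that are not known to pair the libraries, gave 872 rises and 563 falls. No alternative called an RNA in the opposite direction. Over 4180 combinations of a named gene and a setting, 3840 kept their call, 340 lost it and 0 reversed. Of the 190 named genes besides Apc, 119 kept their call in every setting. Leaving out 1 library removed the call of 15 to 32 of them, and numbers 1 and 2 alone that of 53. Reads at or below 3 per library limit what can be said of low genes.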
